A study of Ovis aries with 40 samples.

Results

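Complex III, complex IV and ATP synthase carry out the last steps of mitochondrial respiration. The genes studied were all those on the array whose symbol starts with UQCR, COX4, COX5, COX6, COX7, COX8 or ATP5, together with CYC1, and they numbered 39 of the 9155 genes with a named probe set. Complex III was represented by 9 genes, complex IV by 13 and ATP synthase by 17. Each gene was read from 1 probe set, the one with the highest mean signal over the animals. All 39 passed the detection filter, a mean signal of at least 61.8, as did 6360 genes in all.

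Complex III passes electrons from ubiquinol to cytochrome c and complex IV passes them on to oxygen. Both pump protons across the inner mitochondrial membrane, and ATP synthase uses the returning protons to make ATP in its F1 head. Subunits of the 3 complexes that are encoded in mitochondrial DNA are not members of this list. In skeletal muscle the 3 complexes are most abundant in oxidative fibres, and several complex IV subunits exist as a form used in heart and muscle and a form used in most tissues.

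The animals were 40 Poll Dorset sheep, sampled in the longissimus muscle (LM) at 78 weeks of age, with 1 array each and no treatment. The high muscling group held 19 progeny of 3 sires (8 of sire 11, 7 of sire 2 and 4 of sire 7) and the low muscling group 21 progeny of 3 sires (8 of sire 5, 8 of sire 16 and 5 of sire 17). Sires were classed by breeding value for eye muscle depth, and each sire had progeny in 1 group only, so muscling group and sire are nested. Sheep RNA was hybridised to an array of bovine probes, which can lower the signal of a probe that does not match the sheep transcript, and signals of different probe sets are therefore not compared as levels. Values are MAS5 signals, on a linear scale, and differences are on the log2 scale.

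Median signals of the 40 arrays lay between 56.1 and 67, and 2 arrays correlated over the detected genes with a median Pearson r of 0.935 (range 0.902 to 0.963). The 6 skeletal muscle markers with a named probe set, CKM, ACTA1, TNNT3, MYH1, DES and MB, were detected with signals of 6413 or more in every animal. None of them, of the 7 fast fibre markers or of the 7 slow fibre markers differed between high and low muscling at adjusted p under 0.05 by limma (at an unadjusted p under 0.05 there were 0 muscle markers, 2 fast fibre markers and 2 slow fibre markers). Of 8 fibroblast markers, all detected, 5 were lower and 1 (THY1) was higher in high muscling, and the summed signal of the list ran from 5242 to 12151 in high and from 7910 to 22406 in low muscling. TAGLN (1 of 6 smooth muscle markers) and ITGB2 (1 of 7 leukocyte markers) were also lower in high muscling. At an unadjusted p under 0.05, 6 fibroblast, 4 leukocyte and 2 smooth muscle markers were lower and 1 fibroblast marker was higher. The 6 endothelium and 6 fat cell markers that were detected gave no call by limma, with 2 and 0 at an unadjusted p under 0.05, and of 5 red cell markers 1 was detected. The part of these cells in the results below was not tested, and in whole muscle fewer cells of a type and less RNA per cell cannot be told apart.

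The first comparison asked whether the subunit genes differ between high and low muscling. In high muscling 8 members were lower and 0 were higher (limma with sire as a random block, adjusted p under 0.05 over all detected genes). The members that fell were UQCRH and UQCR11 of complex III, COX6A1 and COX7A2 of complex IV, and ATP5F1E, ATP5ME, ATP5MF and ATP5MJ of ATP synthase. Over all detected genes 7.78% were called, 5.50% lower and 2.28% higher in high muscling. At an unadjusted p under 0.05 there were 16 members, all lower, and 1386 of the 6360 detected genes in either direction. The estimated difference was below 0 for 34 of the 39, with 9 of 9 in complex III, 9 of 13 in complex IV and 16 of 17 in ATP synthase. The median difference was −0.05 in complex III, −0.10 in complex IV and −0.13 in ATP synthase, against −0.04 over all detected genes. With quantile normalization the number below 0 was 25, and 4 members were called (ATP5F1E, ATP5ME, COX6A1 and COX7A2). In that fit 156 of the 6360 genes were higher and 340 were lower. Without sire 5 or without sire 16 the count of members called was 0 by limma, where 23 and 29 of the 6360 genes were called. At an unadjusted p under 0.05 these 2 fits gave 8 and 6 members, and 778 and 772 of the 6360 genes. Without sire 17 the count of members called was 17, where 1221 genes were called. With the spiked hybridisation controls as a covariate 6 members were called, without ATP5MJ and UQCR11, where 92 genes were higher and 216 lower. The block used 1 correlation within sires, 0.135, for every gene. For members that differ more between sires, the SE and p given here can be too small. Of the 8 members called, 7 were also called between sires by the F test below. With sire means as samples 0 members and 0 genes were called (limma, with 5 members and 886 of the 6360 genes at an unadjusted p under 0.05).

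**Figure D1:**
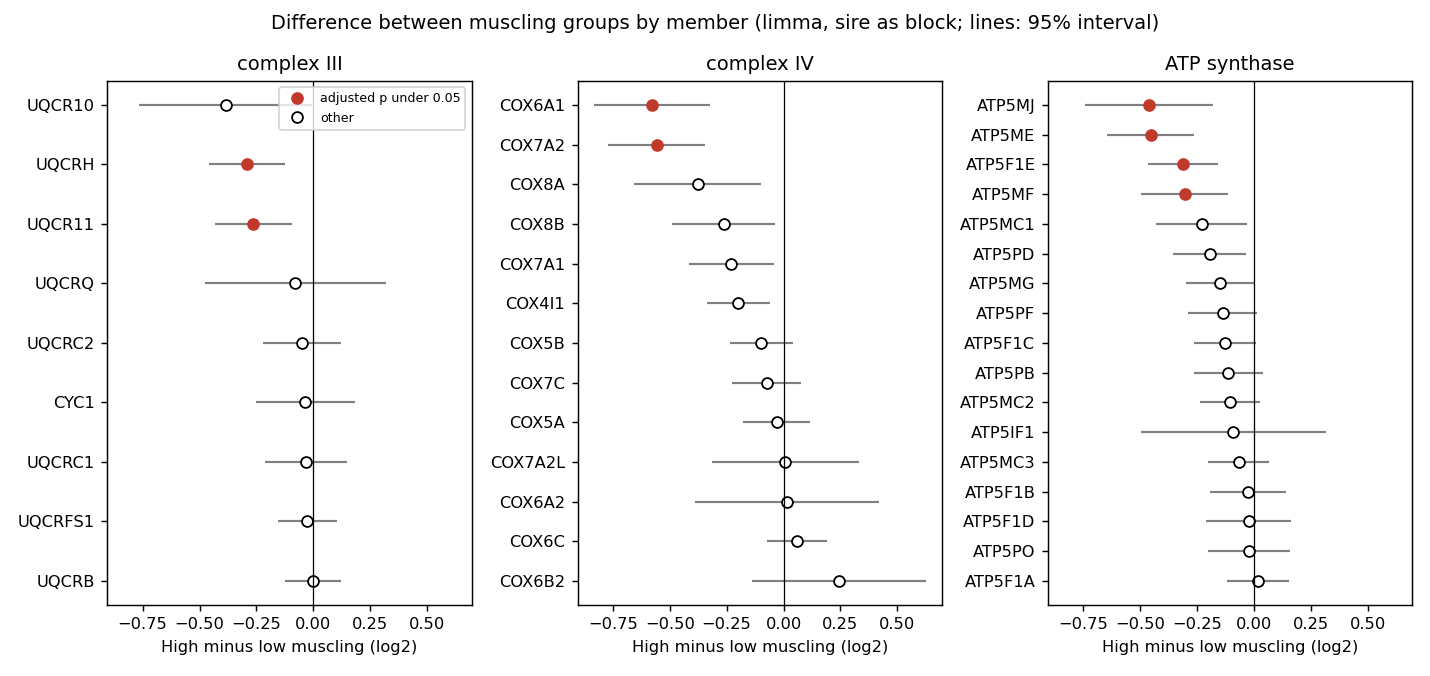
Difference between high and low muscling for each of the 39 members, as log2 signal in high minus low, with lines for the 95% interval of the limma fit. Filled points mark the 8 members with an adjusted p under 0.05, which all lie left of 0, while UQCRB (0.00), UQCRC1 (−0.03) and ATP5F1A (0.02) lie close to 0.

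In complex III, UQCRH is the acidic hinge protein that helps cytochrome c to dock. Its signal had a lowest, median and highest value of 6281, 7330 and 8286 in high muscling. In low muscling these were 6788, 9279 and 12734. The ranges overlapped, but all 8 progeny of sire 16 (9208 or more) lay above every animal of high muscling. The difference was −0.29 (SE 0.08, adjusted p = 0.0248 by limma).

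UQCR11 is another small accessory subunit. Its signal had a lowest, median and highest value of 4550, 5500 and 6156 in high muscling, and of 4982, 6789 and 8306 in low muscling. The 8 progeny of sire 16 were again above all 19 animals of high muscling, and the 5 progeny of sire 17, at 4982 to 5679, lay within their range. The difference was −0.26 (SE 0.08, adjusted p = 0.0424 by limma), and the call was lost with the spiked hybridisation controls as a covariate (adjusted p = 0.07).

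UQCR10, also a small subunit, had an estimate of −0.38 with a wide SE of 0.19 and did not pass (adjusted p = 0.224 by limma). The other 6 subunits of complex III were not called. UQCRB and UQCRQ, both small accessory subunits, were at 0.00 (SE 0.06) and −0.08 (SE 0.20). UQCRC1 and UQCRC2, the core proteins, were at −0.03 (SE 0.09) and −0.05 (SE 0.09), the Rieske iron-sulphur protein UQCRFS1 at −0.03 (SE 0.06) and cytochrome c1, CYC1, at −0.03 (SE 0.11). The estimates of CYC1, UQCRC2 and UQCRFS1 were above 0 with quantile normalization, at 0.05, 0.02 and 0.06.

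In complex IV the 2 members that fell were COX7A2 and COX6A1, the forms used in most tissues. The lowest, median and highest signals of COX7A2 were 803, 986 and 1462 in high muscling and 1055, 1516 and 2535 in low muscling. Its median in low muscling lay above every animal of high muscling. By individual, the 4 progeny of sire 7 gave 803, 1043, 1046 and 1357, and the 5 progeny of sire 17 gave 1055, 1100, 1325, 1569 and 1629. The difference was −0.56 (SE 0.11, adjusted p = 0.000946 by limma), which is a fold of 0.679. Without sire 5 its adjusted p was 0.056, and without sire 16 it was 0.052.

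For COX6A1 the lowest, median and highest signals were 570, 836 and 1266 in high muscling and 767, 1420 and 1770 in low muscling. Each of the 8 progeny of sire 5, at 1420 or more, lay above every animal of high muscling, while the 5 progeny of sire 17 gave 767, 845, 870, 991 and 1096. The difference was −0.58 (SE 0.13, adjusted p = 0.00376 by limma). A second COX6A1 probe set with a mean signal of 604, against 1094 for the one used, correlated with it at r = −0.26 over the 40 animals and was higher in high muscling by 0.24 on the log2 scale. With the mean over both probe sets the difference was −0.17 and was not called (adjusted p = 0.265 by limma), so the COX6A1 result holds for 1 of its 2 probe sets.

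COX4I1, a subunit to which ATP binds to slow the enzyme, gave −0.20 (SE 0.07, adjusted p = 0.0686 by limma) and did not pass. COX5A, COX6C and COX7C, all structural subunits of the complex, had differences between −0.07 and 0.06. The only estimate above 0.1 among the 39 members was that of COX6B2 (0.24, SE 0.19, adjusted p = 0.49 by limma), a form known from testis.

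In ATP synthase, the members that fell in high muscling were 3 of the 4 membrane subunits outside the c ring and 1 of the 5 subunits of F1 with its central stalk. None of the 4 peripheral stalk subunits and 3 c subunits fell (limma, with 1 peripheral stalk and 1 c subunit at an unadjusted p under 0.05). These sets are small, 5.50% of all detected genes were lower, and the difference between the sets was not tested. ATP5ME, subunit e, takes part in joining ATP synthase into dimers. Its lowest, median and highest signals were 3890, 4872 and 6329 in high muscling and 4779, 6875 and 9103 in low muscling. All 8 progeny of sire 5, at 6413 or more, were above all of high muscling, and the 5 progeny of sire 17 gave 4779, 4876, 4902, 5444 and 5631. The difference was −0.45 (SE 0.09, adjusted p = 0.00258 by limma).

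ATP5MF, subunit f, ranged from 5152 to 8701 in high muscling (median 7194) and from 5347 to 11810 in low muscling (median 9280). The difference was −0.30 (SE 0.10, adjusted p = 0.041 by limma). ATP5MJ, a small proteolipid bound to the enzyme, ranged from 3546 to 7178 (median 4927) in high and from 4129 to 11383 (median 7091) in low muscling, a difference of −0.46 (SE 0.14, adjusted p = 0.0347 by limma). ATP5MJ, like UQCR11, was not called with the spiked controls as a covariate. UQCRB, UQCRC1, UQCRQ, COX5A, COX6C, ATP5F1C, ATP5MG and ATP5MJ were named after their values were seen. The ranges of both genes overlapped between the groups. ATP5MG, subunit g and the fourth of these membrane subunits, gave −0.15 (SE 0.07) and did not pass.

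ATP5F1E, the epsilon subunit of F1, part of its central stalk, ranged from 8861 to 12373 in high muscling (median 9835) and from 9904 to 15328 in low muscling (median 12783). The 4 progeny of sire 7 gave 9017, 9412, 10813 and 11700, and the 5 progeny of sire 17 gave 9904, 10334, 10507, 10603 and 12783. The groups overlapped, and the difference was −0.31 (SE 0.08, adjusted p = 0.00838 by limma). The alpha and beta subunits, which form the catalytic sites, stood at 0.02 (ATP5F1A, SE 0.07) and −0.02 (ATP5F1B, SE 0.08). The inhibitor of ATP hydrolysis, ATP5IF1, gave −0.09 with an SE of 0.20. Its signal ranged widely in both groups, from 3372 to 9783 in high and from 2707 to 14152 in low muscling.

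To place the complexes by sire, a score was taken for each animal as the mean, over the members of a complex, of log2 signal minus the mean of that gene over the 40 animals. Sires 5 and 16 had the highest mean scores in all 3 complexes. Sire 5 stood at 0.16 ± 0.17 (SD, n = 8) in complex III, 0.17 ± 0.13 in complex IV and 0.16 ± 0.17 in ATP synthase. Sire 16 stood at 0.11 ± 0.12 (SD, n = 8), 0.10 ± 0.09 and 0.12 ± 0.08 in the same order. The 3 sires of high muscling lay between −0.14 and −0.01 in every complex, while with quantile normalization sire 7 stood at 0.06 in complex III and at 0.0019 in ATP synthase. Over the 40 arrays, the median of all detected genes correlated with the scores at r = 0.50 (III), 0.46 (IV) and 0.36 (ATP synthase), and with sire means removed at 0.01, 0.11 and −0.08. For the spiked hybridisation controls these were −0.09, −0.24 and −0.06, and with sire means removed 0.30, 0.10 and 0.41. The log2 signal of the 3′ minus the 5′ probe set of GAPDH, a measure of RNA quality, averaged 0.30 in high and 0.23 in low muscling. The same measure of actin went the other way, at −0.04 in high and −0.0043 in low muscling. The scores correlated with the GAPDH measure at r = −0.27 (III), −0.23 (IV) and −0.23 (ATP synthase), and with that of actin at 0.17, 0.19 and 0.28. With the GAPDH measure as a covariate the same 8 members were called, where 173 of the 6360 genes were higher and 437 were lower.

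**Figure D2:**
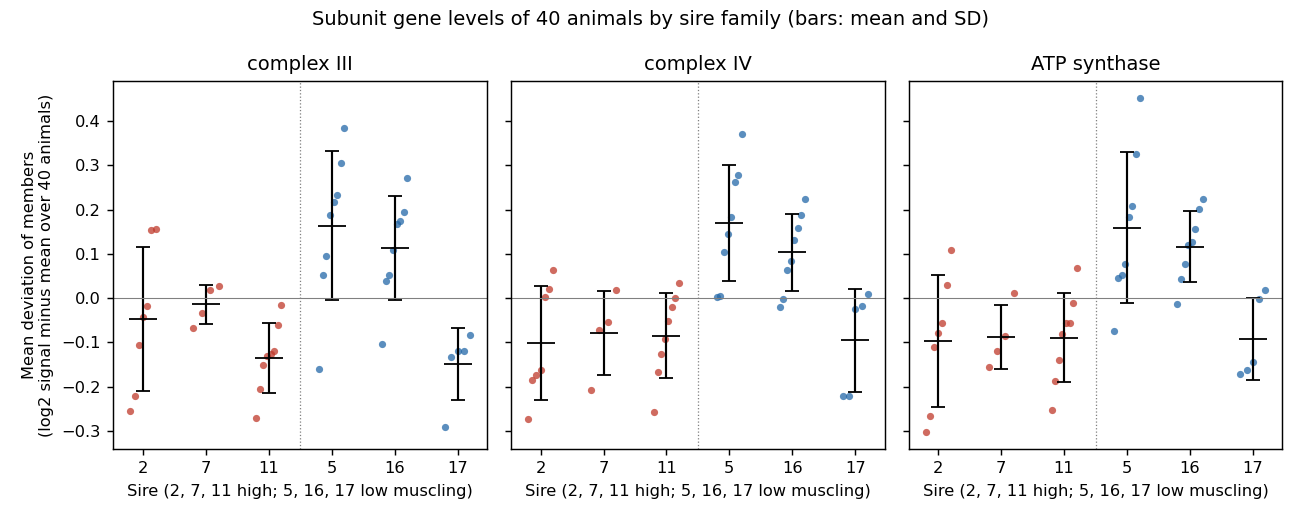
Score of each of the 40 animals for complex III, complex IV and ATP synthase, by sire family, in log2 units (red, high muscling; blue, low muscling; black lines, mean and SD of a family). Sires 5 and 16 lie highest, and sire 17, although of low muscling, has means of −0.15, −0.10 and −0.09, close to the sires of high muscling.

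Sire 17 belonged to low muscling but did not share the higher levels of sires 5 and 16. Its 5 progeny had mean scores of −0.15 ± 0.08 (SD, n = 5) in complex III, −0.10 ± 0.12 in complex IV and −0.09 ± 0.09 in ATP synthase. All 5 lay below 0 in complex III, from −0.29 to −0.08. In 23 of the 39 members the means of sires 5 and 16 both exceeded those of the other 4 sires, a pattern noticed in these data, which 22.9% of all detected genes had. The means of the 3 sires of high muscling were all below those of the 3 sires of low muscling in 4 members (COX7A2, COX8A, ATP5F1C and ATP5F1E), against 11.4% of all detected genes, and all above them in 0 members, against 7.85%.

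**Figure D3:**
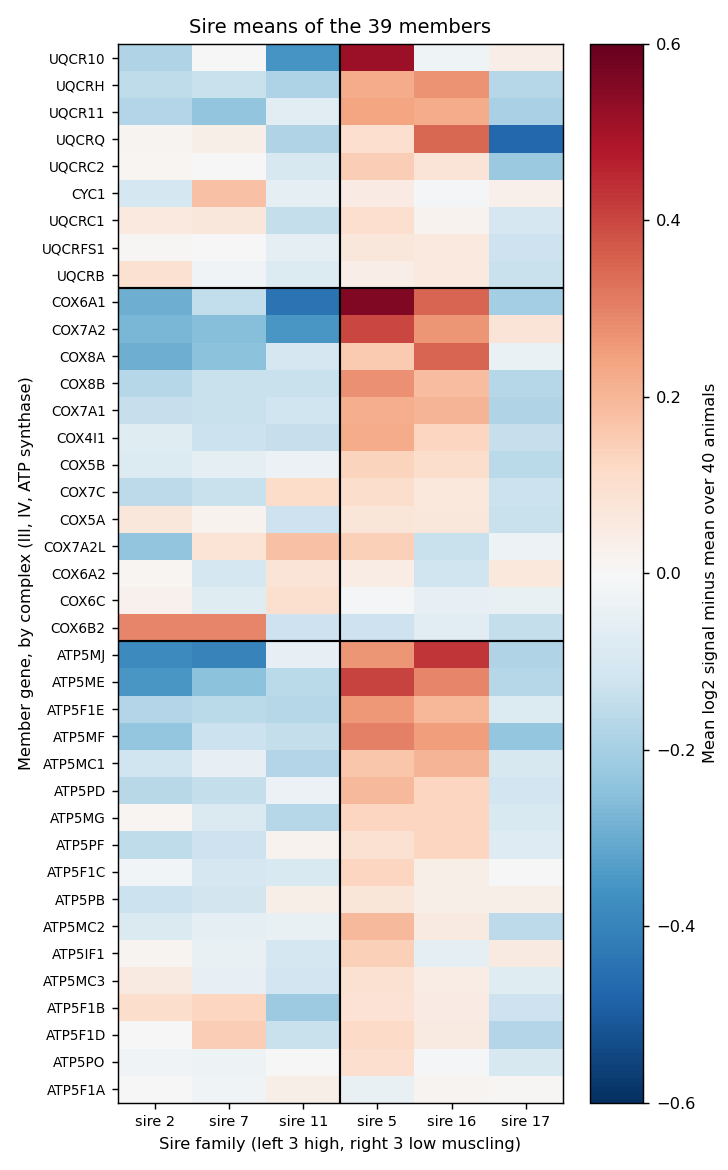
Mean log2 signal of each sire family minus the mean over the 40 animals, for the 39 members in rows, by complex, and the 6 sires in columns (red, higher; blue, lower). The columns of sires 5 and 16 are mostly red and that of sire 17 mostly blue, while COX6B2 is above 0 in sires 2 and 7 alone.

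The next comparison asked whether progeny of different sires of 1 muscling group differ, with an F test over the sires within groups that is separate from the muscling contrast. It called 14 members, 3 in complex III, 5 in complex IV and 6 in ATP synthase, and 22.0% of all detected genes. Of these, 7 were also called between high and low muscling. COX7A2 was not called between sires (adjusted p = 0.337 by limma). COX4I1 (adjusted p = 0.00988), COX7A1, COX5B, COX7C, UQCRC2, ATP5MC2 and ATP5F1B were called between sires and not between groups. A second UQCRC2 probe set had a mean signal of 160, against 3927 for the one used, and correlated with it at r = 0.11. Its mean deviations were 0.0019 in sire 5, −0.31 in sire 16 and 0.07 in sire 17, against 0.15, 0.08 and −0.22. The UQCRC2 values, and its correlations below, hold for 1 of its 2 probe sets. Without sire 17 the test called 2 members and 846 of the 6360 detected genes.

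Single contrasts between sires were added after the data were seen. In sire 17 against sires 5 and 16, 15 members were lower and 0 were higher, while 9.70% of all detected genes were lower and 4.37% were higher. The fitted differences included −0.66 (SE 0.12) for COX6A1, −0.52 (SE 0.09) for ATP5ME, −0.51 (SE 0.09) for ATP5MF, −0.42 (SE 0.08) for both UQCRH and UQCR11 and −0.39 (SE 0.10) for COX7A1. Estimates were below 0 for 35 of the 39 members. The second COX6A1 probe set had mean deviations of −0.08 in sire 5, −0.15 in sire 16 and −0.12 in sire 17, so it did not show the difference of the first. The median over members was −0.20 in complex III, −0.25 in complex IV and −0.22 in ATP synthase, against −0.07 over all detected genes, and with quantile normalization −0.20, −0.12 and −0.09. In this contrast 3 of the 8 fibroblast markers were also lower.

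In sire 11 against sires 2 and 7, 1 member was lower and 1 was higher, against 11.8% and 7.75% of all detected genes. ATP5F1B, the catalytic beta subunit, was lower by this contrast, at −0.33 (SE 0.08). Its signals ran from 10582 to 13165 in the 8 progeny of sire 11, and those of sires 2 and 7 from 12825 to 16623, so that the families overlapped little. A second ATP5F1B probe set had a mean signal of 146, against 13669 for the one used, and correlated with it at r = 0.31. Its mean deviations were 0.08 in sire 11, −0.05 in sire 2 and 0.16 in sire 7, so it did not show this fall. COX7C was higher, at 0.26 (SE 0.07). Both genes were named after their values were seen. In sire 2 against sire 7 and in sire 5 against sire 16 no member was called by limma, with 0.00% and 0.0157% of detected genes called in each direction, and 0 and 2 members at an unadjusted p under 0.05.

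Sire accounted for 52.7% of the variance of the score in complex III, 55.1% in complex IV and 50.7% in ATP synthase. Since sires are nested in muscling groups, these shares include the difference between the groups. By gene the share ran from 3.24% for COX6A2 to 80.5% for ATP5ME, with a median of 39.6%, against 25.9% over all detected genes. COX6A2, ATP5IF1 (3.88%) and ATP5F1A (4.80%) varied almost entirely within families.

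Complex IV has paired isoforms in which the forms of heart and muscle and of most tissues can be compared. COX6A2, COX7A1 and COX8B are the heart and muscle forms. COX6A2 ranged from 1845 to 3747 in high muscling (median 2734) and from 1412 to 4901 in low muscling (median 2494), with a difference of 0.02 (SE 0.20). COX7A1 ranged from 6806 to 10872 (median 9124) in high and from 8050 to 13794 (median 10921) in low muscling, with a difference of −0.23 (SE 0.09, adjusted p = 0.122 by limma). The groups overlapped in both genes, and neither passed.

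COX8B had a range of 1386 to 2240 in high muscling and of 1243 to 2851 in low muscling, and a difference of −0.26 (SE 0.11, adjusted p = 0.152 by limma). COX8A, its counterpart in most tissues, had a range of 799 to 1413 in high and 876 to 2560 in low muscling, and a difference of −0.38 (SE 0.14, adjusted p = 0.0837 by limma). Neither passed, and their ranges overlapped between the groups. A second COX8B probe set had a mean signal of 447, against 1952 for the one used, and correlated with it at r = 0.09. By plain group means it differed by 0.01 between high and low muscling, against −0.28 for the one used. The COX8B values, and its ratio and correlations below, hold for 1 of its 2 probe sets. COX7A2L, which takes part in joining complexes III and IV into supercomplexes, had a difference of 0.01 (SE 0.16).

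**Figure D4:**
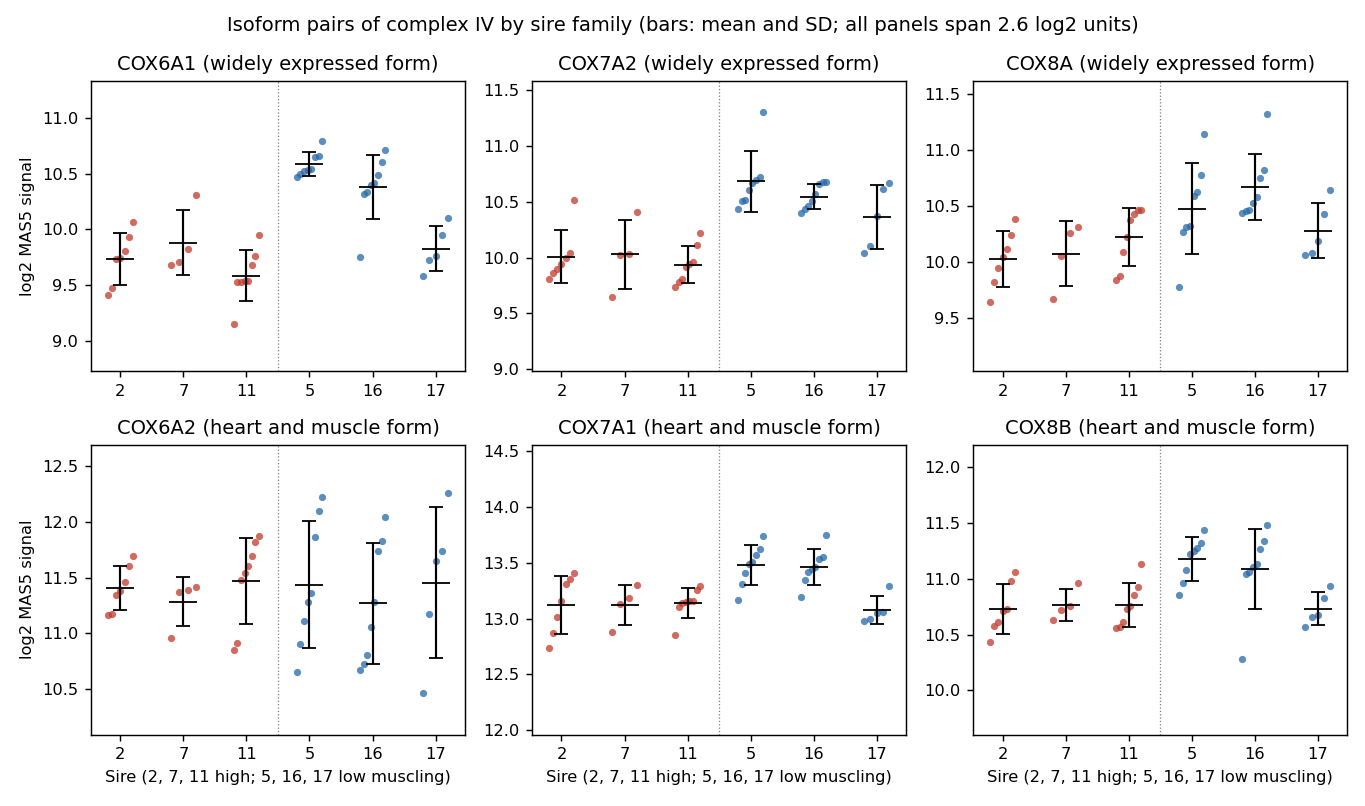
Log2 signal of 3 isoform pairs of complex IV by sire family, with 1 point per animal and lines for the mean and SD (top row, forms of most tissues; bottom row, heart and muscle forms; red, high muscling; blue, low muscling). COX6A1 and COX7A2 lie higher in sires 5 and 16, COX6A1 by 1 of its 2 probe sets. COX6A2 spreads over more than 1 log2 unit within families of low muscling and within that of sire 11.

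The log2 ratio of the 2 forms was compared over sire means, 3 against 3, a test added after the data were seen whose smallest two-sided p is 0.1. The ratio of COX7A2 to COX7A1 gave a difference of −0.33 between high and low muscling (exact permutation p = 0.1). That of COX6A1 to COX6A2 gave −0.53 (exact permutation p = 0.2) and that of COX8A to COX8B −0.13 (exact permutation p = 0.3). Adjusted over the 3 pairs, each p was 0.3. Over the 40 animals the forms of a pair correlated at r = −0.11 for COX6A1 and COX6A2, 0.54 for COX7A2 and COX7A1 and 0.43 for COX8A and COX8B. With sire means removed these were −0.10, 0.07 and 0.13. The ratio and correlations of COX6A1 hold for 1 of its 2 probe sets. The second correlated with the one used at r = −0.26 and by plain group means was higher in high muscling by 0.24.

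The c ring of ATP synthase is encoded by 3 genes that yield the same mature protein. ATP5MC1 ranged from 6052 to 11025 in high and from 8072 to 16021 in low muscling (difference −0.23, SE 0.10, adjusted p = 0.156 by limma). ATP5MC2 had a difference of −0.11 (SE 0.07) and ATP5MC3 of −0.07 (SE 0.07). None of the 3 passed. ATP5MC1 and ATP5MC3 correlated at r = 0.75 over the 40 animals and at 0.77 with sire means removed, and ATP5MC2 correlated with ATP5MC1 at 0.57 and with ATP5MC3 at 0.49.

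The 3 complexes were then compared with each other over the 40 animals, which share arrays, scaling and sires, so that correlations are given as descriptions. Scores of complex IV and ATP synthase correlated at r = 0.89, those of complex III and ATP synthase at 0.83, and those of complexes III and IV at 0.75. With sire means removed these were 0.77, 0.72 and 0.54. The median r over pairs of genes was 0.49 within ATP synthase, 0.39 within complex III and 0.25 within complex IV. Between complexes it was 0.44 for III and ATP synthase, 0.41 for IV and ATP synthase and 0.30 for III and IV. Over all pairs of detected genes the median was 0.0086. With quantile normalization the value within ATP synthase was 0.26 and that within complex IV was 0.14.

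**Figure D5:**
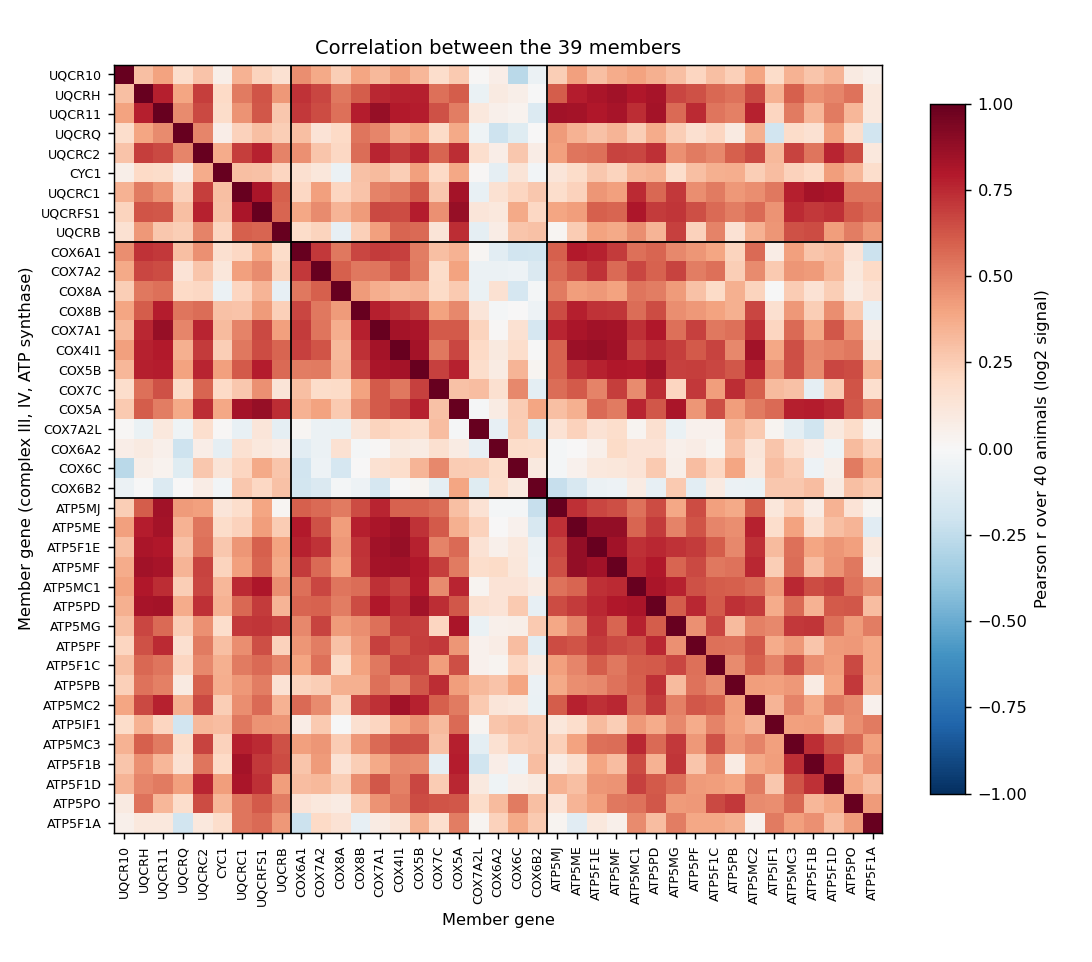
Pearson correlation of log2 signals over the 40 animals for all pairs of the 39 members, ordered by complex and by difference between groups within each complex (black lines part the complexes). Most pairs are positive, and pale rows mark COX6B2, COX6A2, COX7A2L and COX6C, whose mean r with other complex IV members was 0.13 or less.

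Pairs with the highest r crossed the complexes as well as lying within them. ATP5MF and ATP5ME correlated at 0.88, ATP5F1E and ATP5ME at 0.88, ATP5F1E and COX4I1 at 0.87 and UQCR11 and COX7A1 at 0.87. The lowest pair was UQCR10 and COX6C, at −0.27. Within complex IV the mean r with the other members was highest for COX5B and COX4I1 (both 0.48) and lowest for COX6B2 (−0.01), COX6A2 (0.06), COX7A2L (0.08) and COX6C (0.13). In complex III it was highest for UQCRC2 (0.56) and UQCRFS1 (0.53) and lowest for CYC1 (0.21) and UQCR10 (0.24). In ATP synthase it was highest for ATP5MC1 (0.63) and ATP5PD (0.62), a peripheral stalk subunit, and lowest for ATP5F1A (0.29) and ATP5IF1 (0.36).

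The other respiratory complexes were read from the same fits. Of 38 complex I genes 4 were lower and 0 were higher in high muscling, with a median difference of −0.16, where 5.50% of all detected genes were lower. At an unadjusted p under 0.05, 15 complex I genes were lower. The smallest p belonged to NDUFC2 (−0.39, SE 0.09) and NDUFB2 (−0.29, SE 0.08), both accessory subunits. In sire 17 against sires 5 and 16, 21 of the 38 were lower, against 9.70% of all detected genes. None of the 4 complex II genes was called by limma in either contrast, 0 had an unadjusted p under 0.05 between high and low muscling, and their median difference was 0.07. None of 10 assembly factors of complex IV, 2 of complex III, 2 of ATP synthase and 7 carriers and partners of the last steps, such as the voltage-dependent channels VDAC1 and VDAC2, was called between high and low muscling (limma, with 3, 0, 1 and 1 of them, in that order, at an unadjusted p under 0.05).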

How the data were processed

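The authors deposited MAS5 signal intensity values, on a linear scale, of Bovine Genome arrays hybridised with LM RNA of 40 sheep, with each array scaled to a trimmed mean of 200. No version of MAS5 is given in the sources used here. Of 24016 probe sets other than controls, 13292 had 1 gene symbol in the annotation of the array, 86 had several and 10638 had none, and only the first were used, with 1 probe set per gene. The log2 of the signal was taken with no further normalization. Genes under a mean signal of 61.8, the median over all 24016 probe sets other than controls, were left out. The muscling groups were fitted in limma 3.58.1 under R 4.3.3 (duplicateCorrelation, sire as a random block, estimated correlation 0.135), sires within groups by a moderated F test, and p-values were adjusted by Benjamini-Hochberg over 6360 genes. The fits were run on simulated data, with the same sire correlation of 0.135 for every gene in the group fit. These data do not test the p-values of members that differ more between sires. Scores, correlations and exact permutation tests were computed in Python 3.11.15 with scipy 1.17.1.

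The members, lists and tests were chosen with earlier results of these data known. Named members are those with the smallest p or the highest or lowest mean r in each complex, the isoforms and the c subunits, with others said to be named later. Alternatives covered normalization, a floor, probe sets, detection, the block, sire means, each sire left out, the correlation measure and, added after the data were seen, array controls as covariates. The number of arrays limits the precision. Progeny of a sire are separate animals. The labels used here give no batch, and no sequence is given.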

Additional observations from a re-analysis of the deposited data

Results flagged for a closer look

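Within sire families of 4 to 8 animals, 66 sets of values (the scores and the leading members) were examined for 1 animal far from the rest of its family, and 6 stood apart. Chance flags about 1 in 20 such sets. In complex III, 1 of the 5 progeny of sire 17 had a score of −0.29, with the next at −0.13. For ATP5F1E, 1 progeny of sire 11 had a signal of 12373 (next 10547) and 1 of sire 17 a signal of 12783 (next 10603). For COX6A1, 1 progeny of sire 16 was low, at 864 (next 1275). For COX7A2, 1 progeny of sire 2 was high, at 1462 (next 1050.0), and 1 of sire 5 was high, at 2535 (next 1689.9).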

How the results depend on the processing

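No difference called between groups changed sign. Estimates of 6 named members that were not called did so when a sire was left out: COX7A2L (−0.11 to 0.14), COX6A2 (−0.05 to 0.06), CYC1 (−0.10 to 0.02), UQCRC2 (−0.15 to 0.02), UQCRFS1 (−0.08 to 0.01) and ATP5F1A (−0.0023 to 0.03). The 495 genes and 8 members called between high and low muscling became 1586 genes and 17 members with no block, 308 genes and 6 members with the spiked controls as a covariate, and 0 genes and 0 members with sire means as samples, where limma gave 886 genes and 5 members at an unadjusted p under 0.05. Members called were 4 with quantile normalization, where 156 genes were higher and 340 lower in high muscling. They were 14 with median centring, where 92 genes were higher and 556 lower. Median centring left 14.2% of the gene calls higher in high muscling against 29.3%. Between sires, 9 members were called with quantile normalization, against 14 in the main fit. The share of all detected genes called between sires in that fit is not given here, so the 9 cannot be set against it. Leaving out each sire gave 23 to 1221 genes and 0 to 17 members between groups, and 407 to 1389 genes and 2 to 16 members between sires. Genes called between groups were 23 without sire 5, 29 without sire 16, 272 without sire 7, 290 without sire 2 and 1221 without sire 17. With quantile normalization the median r was 0.279 between complex III and ATP synthase, 0.223 between complex IV and ATP synthase, 0.136 within complex IV and 0.265 within ATP synthase, and it was 0.350 within complex IV with the spiked controls regressed out. Spiked controls averaged 0.05 in high and −0.05 in low muscling (log2, array mean removed). No paired analysis was possible because replicate numbers were given in accession order only.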
